A study of Mus musculus with 4 samples.

Results

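The mitochondrial genome of the mouse is a small circle of DNA that encodes 13 subunits of the respiratory chain, the 2 rRNAs of the mitochondrial ribosome and the 22 tRNAs that serve it. The deposited table lists all 37 genes on the chromosome named MT, and these 37 of its 55401 rows are described here. They were taken by chromosome name alone. Of them 28 lie on the plus strand and 9 on the minus strand of the reference sequence. The minus strand carries mt-Nd6 and 8 tRNA genes.

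The libraries came from cultured mouse cells that the labels call female germline stem cells (FGSCs), taken from the ovary of the C57BL/6 strain. Libraries labelled daidzein (2) came from cells treated with this soy isoflavone, and libraries labelled DMSO (2) came from cells given its solvent. The shared medium was MEM-alpha with fetal bovine serum, and it held LIF, GDNF, bFGF and EGF, factors used to keep stem cells growing. The labels mention several daidzein concentrations without tying a dose or a duration to a library. No label says that replicates were independent cultures. All p-values therefore describe the scatter among 4 libraries, and this scatter may be technical alone. The question put to the data is whether RNA made from the mitochondrial genome differs between the treatments.

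Library totals were 17192077 and 18537134 counts with daidzein, against 16230400 and 17119625 with DMSO. A gene with 0 reads could have had up to 3 counts, or 0.162 to 0.185 CPM (counts scaled to a common library size). The labelled cell type was checked against marker lists. Of 12 germline genes 7 had at most 3 reads over the 4 libraries together, with Pou5f1 and Nanog at 0. Kit, at 10574 to 12205 reads a library, made up most of the list's reads. Etv5 had 931 to 1123 reads a library, Zbtb16 had 67 to 93, and Ifitm3 and Prdm1 had at most 4. Of 9 immune and mast cell genes 4 had 0 reads, among them Fcer1a, Tpsb2 and Mcpt4, and Csf1r had at most 2 reads a library. Other members of this list had many more. Ptprc had 2774 and 3187 reads with daidzein and 2593 and 2849 with DMSO. Adgre1 had 2006 and 2339 reads with daidzein and 2123 and 2246 with DMSO, and Ms4a2 had 49 to 79 reads a library. Cpa3, a carboxypeptidase of mast cell granules, had 13269 and 13583 reads with daidzein and 11556 and 12049 with DMSO. The summed level of the immune and mast cell list was 1035 to 1054 CPM with daidzein, against 1004 to 1008 CPM with DMSO, and its part in the results was not tested. The summed germline list, most of it Kit, was at 682 to 724 CPM with daidzein and 714 to 718 CPM with DMSO. A list of 6 stromal and ovarian somatic genes summed to 1.63 to 2.05 CPM with daidzein and 1.85 to 2.57 CPM with DMSO.

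Both strands of mitochondrial DNA are transcribed by the polymerase POLRMT from promoters in the noncoding control region, as long precursors that span many genes. tRNA genes sit between most of the mRNA and rRNA genes. Nucleases cut the tRNAs out and so release the other transcripts, most of which are then polyadenylated. The mRNAs encode membrane subunits of complexes I, III and IV and of the ATP synthase, while all other proteins of mitochondria are made from nuclear genes.

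Of 13 mRNAs, 9 begin with the codon ATG, while mt-Nd2 begins with ATA, mt-Nd3 with ATT, mt-Nd5 with ATC and mt-Nd1 with GTG. Each of these codons can start translation in vertebrate mitochondria. In 3 mRNAs, mt-Co3, mt-Nd4 and mt-Cytb, the gene length is not a multiple of 3 and the annotated sequence ends in a lone T, which the poly(A) tail completes to a stop codon. The base composition separates the strands. G made up 5.88% to 16.1% and C 22.1% to 30.0% of the 12 plus-strand mRNAs. In mt-Nd6 G made up 28.1% and C 5.97%.

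Annotated genes leave almost no room between them. Among 36 pairs of neighbours 9 overlap, and 1 gap, of 32 bases between mt-Tn and mt-Tc, is longer than 10 bases. The control region, which lies between the end of mt-Tp and the start of mt-Tf on the circle, holds no annotated gene. The tRNA sequences shown here lie next to these unannotated stretches. A search found the anticodon arm in each of them, and it was not run for mt-Tf, which also borders the control region. mt-Tp (tRNA for proline, MT:15356-15422, minus strand) and mt-Tc (tRNA for cysteine, MT:5192-5257, minus strand) are the tRNA genes with reads, and mt-Tn (tRNA for asparagine, MT:5089-5159, minus strand) is the neighbour of mt-Tc across the gap. Sequences are from GENCODE M21 transcripts on GRCm38, and capitals mark the anticodon.
mt-Tp: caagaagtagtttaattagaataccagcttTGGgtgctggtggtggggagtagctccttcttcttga
mt-Tc: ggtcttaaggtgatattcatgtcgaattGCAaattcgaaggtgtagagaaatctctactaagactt
mt-Tn: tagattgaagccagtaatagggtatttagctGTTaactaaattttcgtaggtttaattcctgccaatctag

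The largest overlap is that of mt-Atp8 (MT:7766-7969, plus strand) with mt-Atp6 (MT:7927-8607, plus strand), both subunits of the ATP synthase that are read from a shared mRNA. It is shown because a read in these bases can belong to either gene. Capitals mark the last 43 of the 204 bases of mt-Atp8, which are also the first 43 of mt-Atp6.
mt-Atp8: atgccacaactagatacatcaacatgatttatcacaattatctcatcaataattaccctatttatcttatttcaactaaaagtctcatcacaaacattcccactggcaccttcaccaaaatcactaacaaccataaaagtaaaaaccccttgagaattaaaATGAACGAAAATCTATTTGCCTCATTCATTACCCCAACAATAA

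A stretch of chromosome 1 holds nuclear copies of mitochondrial genes, annotated as unprocessed pseudogenes on the minus strand of GRCm38. Over at least 95% identity and 50% of the gene, Gm28661 (1:24614885-24615565) matched mt-Co2, Gm10925 (1:24613974-24614651) mt-Atp6, Gm28437 (1:24613189-24613971) mt-Co3 and Gm10222 (1:24612407-24612700) mt-Nd4l, each at 100% identity over 99.0% to 99.9% of the mitochondrial gene. Gm28438 (1:24612775-24613119) matched mt-Nd3 at 99.7% identity over 345 bases, with 1 mismatch. Gm28439 (1:24611535-24612410) matched 876 bases of mt-Nd4, 63.6% of that gene, at 100% identity. No row of the table lies between Gm10925 and Gm28661, where a copy of mt-Atp8 would fall. The mismatch is shown in capitals in the first 63 bases of mt-Nd3 (MT:9459-9521, plus strand) and of Gm28438 (1:24613057-24613119, minus strand). It is T3C, counted from the first base of mt-Nd3, and falls in the start codon.
mt-Nd3: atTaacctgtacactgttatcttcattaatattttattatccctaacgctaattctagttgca
Gm28438: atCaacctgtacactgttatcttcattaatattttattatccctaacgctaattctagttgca

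Levels per length differed widely among the mRNAs, with overlapping ranges for several genes. On the FPKM scale (reads scaled by gene length and library total, as deposited), mt-Co1, the catalytic subunit of cytochrome c oxidase, was highest, at 3975 and 4106 FPKM with daidzein and 3646 and 4052 FPKM with DMSO. mt-Nd1, a membrane subunit of complex I, followed at 3654 and 3614 FPKM with daidzein and 3197 and 3388 FPKM with DMSO. The ranges of these genes over the 4 libraries touch, but within each library mt-Nd1 stood at 83.6% to 91.9% of mt-Co1.

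mt-Cytb, the subunit of complex III that binds ubiquinol, had a level of 2186 ± 35.7 FPKM with daidzein and 1967 ± 65.3 FPKM with DMSO (SD, n = 2 each). mt-Nd2, of complex I, stood at 1306 ± 26.8 FPKM with daidzein and 1135 ± 87.6 FPKM with DMSO (SD, n = 2 each). Below it came mt-Nd5, with 643 to 819 FPKM over the 4 libraries, and mt-Nd4, with 621 to 726 FPKM, whose ranges overlap. mt-Nd6, of complex I and on the opposite strand, was at 472 ± 16.7 FPKM with daidzein and 398 ± 24.4 FPKM with DMSO (SD, n = 2 each). Its annotated interval (MT:13552-14070) overlaps that of mt-Nd5 by 14 bases. No source used here gives the strand setting of the counting, so reads of either strand in that interval may be counted for mt-Nd6.

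The rRNAs lay among the mRNAs per length, not above them. mt-Rnr1 (12S) had a level of 848 ± 0.424 FPKM with daidzein and 767 ± 87.4 FPKM with DMSO (SD, n = 2 each), and mt-Rnr2 (16S) of 504 ± 9.45 FPKM with daidzein and 449 ± 63.5 FPKM with DMSO (SD, n = 2 each). Within each library mt-Rnr2 stood at 57.4% to 60.2% of mt-Rnr1 per length. The labels name total RNA as the molecule and standard Illumina library protocols, and say neither whether rRNA was depleted nor whether poly(A) RNA was selected.

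The other mRNAs stood far lower. mt-Co2 and mt-Co3, the other mitochondrially encoded subunits of cytochrome c oxidase, were at 27.3 to 37.4 FPKM and 11.9 to 16.2 FPKM over the 4 libraries. mt-Atp6 was at 7.24 to 12.0 FPKM, mt-Nd3 at 3.72 to 4.36 FPKM, mt-Atp8 at 1.51 to 5.15 FPKM and mt-Nd4l at 1.18 to 2.55 FPKM. These genes follow each other on the genome, between mt-Co1 and mt-Nd4, apart from tRNA genes. Of these 6, all except mt-Atp8 are the 5 mRNAs with a nearly full-length copy on chromosome 1. The lowest of the other 7 mRNAs, mt-Nd6, had at least 380 FPKM in every library. Reads that align equally well in several places can be dropped or split, so levels of the 6 low genes are uncertain, and how many of their reads were lost was not tested. The same limit applies to part of mt-Nd4, through Gm28439, and to part of mt-Co1. Gm29216 (1:24615706-24616197) matched mt-Co1 at 99.8% identity over 31.3% of the gene. It had 48 and 58 reads with daidzein and 40 and 56 with DMSO.

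**Figure D1:**
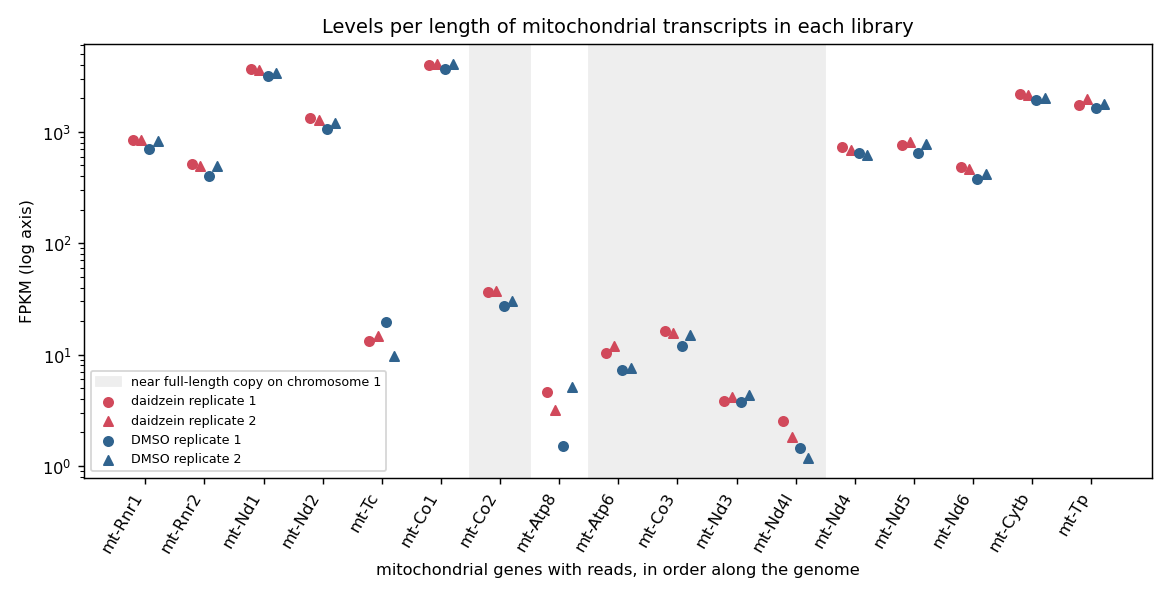
Level per length (FPKM, log axis) of the 17 mitochondrial genes with reads, in genome order, with 1 point per library. Grey marks the 5 mRNAs with a nearly full-length copy on chromosome 1, which stand between 1.18 and 37.4 FPKM, while all other mRNAs except mt-Atp8 stand at 380 FPKM or more.

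Reads were counted on the copies as well. mt-Co3 had 218 and 228 reads with daidzein and 151 and 202 with DMSO, and its copy Gm28437 had 197 and 207 with daidzein and 112 and 140 with DMSO. mt-Atp6 had 122 and 151 reads with daidzein and 80 and 89 with DMSO, against 132 and 141 on Gm10925 with daidzein and 91 and 116 with DMSO. Scaled for depth by TMM, both daidzein libraries lay above both DMSO libraries in each of these 4 genes, which 14.7% of all genes tested did.

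mt-Co2 had 427 and 474 reads with daidzein and 303 and 351 with DMSO, and its copy Gm28661 had 141 and 156 with daidzein and 86 and 106 with DMSO. mt-Nd3 had 23 and 27 reads with daidzein and 21 and 26 with DMSO, and its copy Gm28438 had more, 72 and 87 with daidzein and 72 and 76 with DMSO. Scaled for depth, the groups did not overlap for mt-Co2 and Gm28661, and they overlapped for mt-Nd3 and Gm28438. mt-Nd4l had 13 and 10 reads with daidzein and 7 and 6 with DMSO, too few to be tested, and its copy Gm10222 had 10 and 17 with daidzein and 12 and 6 with DMSO, which overlap. Where sequences are identical, which of the pair a read came from cannot be told.

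**Figure D2:**
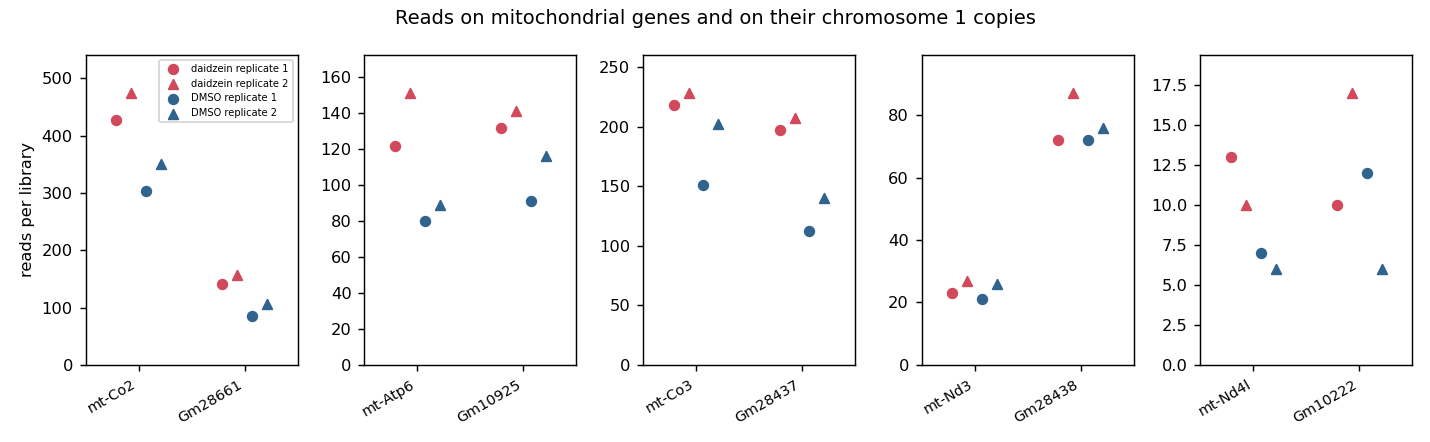
Reads per library on 5 mitochondrial mRNAs (left in each panel) and on their copies on chromosome 1 (right), with 1 point per library and a separate axis from 0 in each panel. Reads on the copies run from 6 on Gm10222 to 207 on Gm28437, and Gm28438 has more reads than mt-Nd3 in all 4 libraries.

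Of 22 tRNA genes 20 had 0 reads in all 4 libraries, 14 on the plus strand and 6 on the minus strand. By counting error alone, each of these genes could still have stood at 0.0434 CPM in the pooled libraries. mt-Tp had 2026 and 2450 reads with daidzein and 1769 and 2026 with DMSO. The groups meet at 2026 reads before scaling for depth. Per length that was 1759 and 1973 FPKM with daidzein and 1627 and 1766 FPKM with DMSO, within the range of the abundant mRNAs. mt-Tc had 15 and 18 reads with daidzein and 21 and 11 with DMSO, so its daidzein libraries fell between its DMSO libraries. mt-Tp borders the control region. mt-Tc borders the gap of 32 bases, as does mt-Tn, which was at 0. mt-Tf, which borders the control region on the other side and starts at base 1 of the linear reference, was also at 0. Every other tRNA gene has an annotated neighbour within 10 bases on each side. A tRNA gene is 59 to 75 bases long, so reads counted for it can extend into whatever lies beside it. Whether the count on mt-Tp holds such reads, of either strand, was not tested.

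Mitochondrial genes took a slightly larger share of counts with daidzein. The share was 1.80% and 1.81% with daidzein, against 1.57% and 1.73% with DMSO, and the groups did not overlap. The difference of means was 0.153 percentage points, with p = 0.333 in a two-sided exact permutation test, the smallest p that 2 against 2 libraries can give. DMSO replicate 1 was the lowest library. Without it the difference was 0.0754 percentage points, and without DMSO replicate 2 it was 0.231. Without the 9 mitochondrial genes that have a nuclear copy by the rule above anywhere in the annotation, mt-Co1 and mt-Nd5 among them, it was 0.0969. That value rests on a smaller base, since mt-Co1 alone held 34.2% to 36.2% of mitochondrial counts, so it does not show a weaker relative difference. In bulk libraries, a difference in mitochondrial RNA per cell and a difference in the mix of cells cannot be told apart.

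The mRNA share was 1.62% and 1.63% with daidzein, against 1.43% and 1.56% with DMSO. The rRNA share was 0.162% and 0.160% with daidzein, against 0.131% and 0.157% with DMSO. The tRNA share, nearly all of it mt-Tp, was 0.0119% and 0.0133% with daidzein and 0.0110% and 0.0119% with DMSO. For mRNA and rRNA the daidzein libraries lay above both DMSO libraries, and for tRNA daidzein replicate 1 lay below DMSO replicate 2. DMSO replicate 2 was close to the daidzein libraries in rRNA share, and DMSO replicate 1 was lower than the other 3 libraries in all classes.

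**Figure D3:**
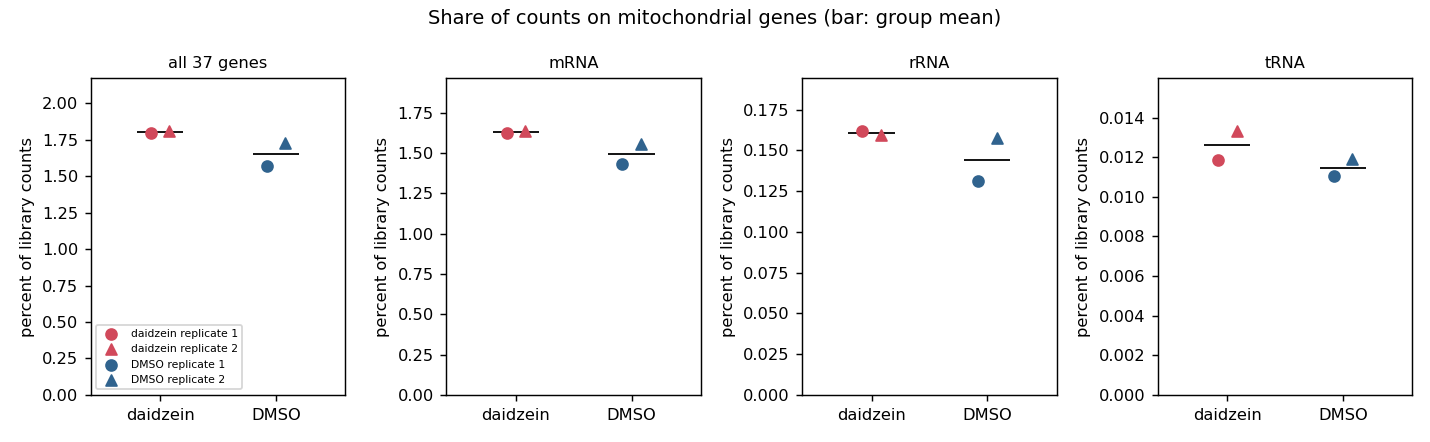
Percent of library counts on all 37 mitochondrial genes and on each class, with 1 point per library, the group mean as a bar and axes from 0. For all 37 genes the daidzein libraries are at 1.80% and 1.81%, against 1.57% and 1.73% for DMSO.

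No mitochondrial gene passed the test across all genes. Of the 37 genes 16 had enough reads to test, and the other 21 were mt-Nd4l and the 20 tRNA genes at 0. In the quasi-likelihood fit of edgeR, with p adjusted by Benjamini-Hochberg over 11700 genes, 0 of the 16 changed, where 0.0171% of all genes tested did. DESeq2 and limma on FPKM values also called 0 of them. Without DMSO replicate 2 the edgeR fit called 3, mt-Nd5, mt-Nd6 and mt-Rnr2, all higher, and without a filter on low counts it called 2, mt-Nd2 and mt-Nd6. At an unadjusted p under 0.05 there were 10 of the 16, all higher with daidzein, where 1.29% of all genes tested were higher at that p. In 11 of the 16 both daidzein libraries lay above both DMSO libraries, where 14.7% of all genes tested did so. In 0 of the 16 both lay below, where 15% of all genes tested did. The genes are cut from shared precursors and measured in the same libraries, so they do not count as separate observations of the treatment.

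The median log2 difference between daidzein and DMSO was 0.16 over the 16 genes and -0.0027 over all genes tested, with 14 of the 16 higher, where 48.7% of all genes tested were higher, and 2 lower. Leaving out DMSO replicate 1 gave a median of 0.10, and leaving out DMSO replicate 2 gave 0.27. Between the DMSO replicates themselves, the median log2 difference of replicate 2 over replicate 1 was 0.13 over the same 16 genes, and between the daidzein replicates it was -0.02. The difference between the groups was of similar size to that between the DMSO replicates, and larger than that between the daidzein replicates. The former compares groups of 2 libraries and the latter single libraries, so these sizes are not on the same scale. With 2 libraries a group, they cannot tell whether the groups differ by more than replicates do. The tested mitochondrial genes had a median GC content of 36.2%, against 49.7% over all genes tested. With a trend on GC content over all genes removed, their median log2 difference was 0.09, with 14 of 16 still higher.

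Among the subunits of complex I, which passes electrons from NADH to ubiquinone, mt-Nd6 had the smallest p of the 16 tested mitochondrial genes. It stood at 253 and 238 CPM with daidzein and 198 and 215 CPM with DMSO, normalized by TMM. The groups did not overlap, the fold was 1.19 (95% interval 1.09 to 1.29), and the edgeR adjusted p was 0.740. mt-Nd2 stood at 1384 and 1330 CPM with daidzein and 1119 and 1239 CPM with DMSO. Its fold of 1.15 (1.06 to 1.25) had an edgeR adjusted p of 1.00, as had the folds of all other tested mitochondrial genes.

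mt-Nd4 stood at 1006 and 954 CPM with daidzein and 891 and 854 CPM with DMSO, a fold of 1.12 (1.04 to 1.21). It was the abundant mRNA in which DMSO replicate 2, not replicate 1, was the lowest library. mt-Nd5 stood at 1405 and 1487 CPM with daidzein and 1178 and 1417 CPM with DMSO, a fold of 1.11 (1.01 to 1.23), and its groups overlapped. Its log2 difference of 0.16 became 0.03 when DMSO replicate 1 was left out and 0.30 when DMSO replicate 2 was. mt-Nd1 had a fold of 1.10 (1.03 to 1.19) and mt-Nd3, at 21 to 27 reads, of 0.993 (0.591 to 1.67).

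mt-Cytb stood at 2546 and 2461 CPM with daidzein and 2207 and 2296 CPM with DMSO, a fold of 1.11 (1.03 to 1.20). mt-Co1 stood at 6180 and 6314 CPM with daidzein and 5659 and 6242 CPM with DMSO, a fold of 1.05 (0.971 to 1.14). Its groups overlapped, and its log2 difference was 0.07 over all libraries and 0.0019 without DMSO replicate 1. mt-Co2 had the fold 1.29 (1.10 to 1.50), mt-Co3 1.18 (0.957 to 1.46) and mt-Atp6 1.51 (1.16 to 1.95), with counts that the chromosome 1 copies make uncertain. The copies themselves had folds of 1.44 (1.13 to 1.84) for Gm28661, 1.50 (1.20 to 1.86) for Gm28437 and 1.23 (0.961 to 1.58) for Gm10925, each with an edgeR adjusted p of 1.00. mt-Atp8, at 5 to 18 reads, had a fold of 1.14 (0.515 to 2.52).

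The rRNAs had folds of 1.11 (1.01 to 1.21) for mt-Rnr1 and 1.12 (1.02 to 1.24) for mt-Rnr2. mt-Rnr2 stood at 812 and 783 CPM with daidzein and 643 and 780 CPM with DMSO. DMSO replicate 1 alone stood apart here, and the log2 difference of 0.17 was 0.03 without it and 0.31 without DMSO replicate 2. mt-Rnr1 behaved alike, with a log2 difference of 0.15 that was 0.04 without DMSO replicate 1. mt-Tp had a fold of 1.10 (0.996 to 1.21) and mt-Tc of 0.960 (0.495 to 1.86).

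**Figure D4:**
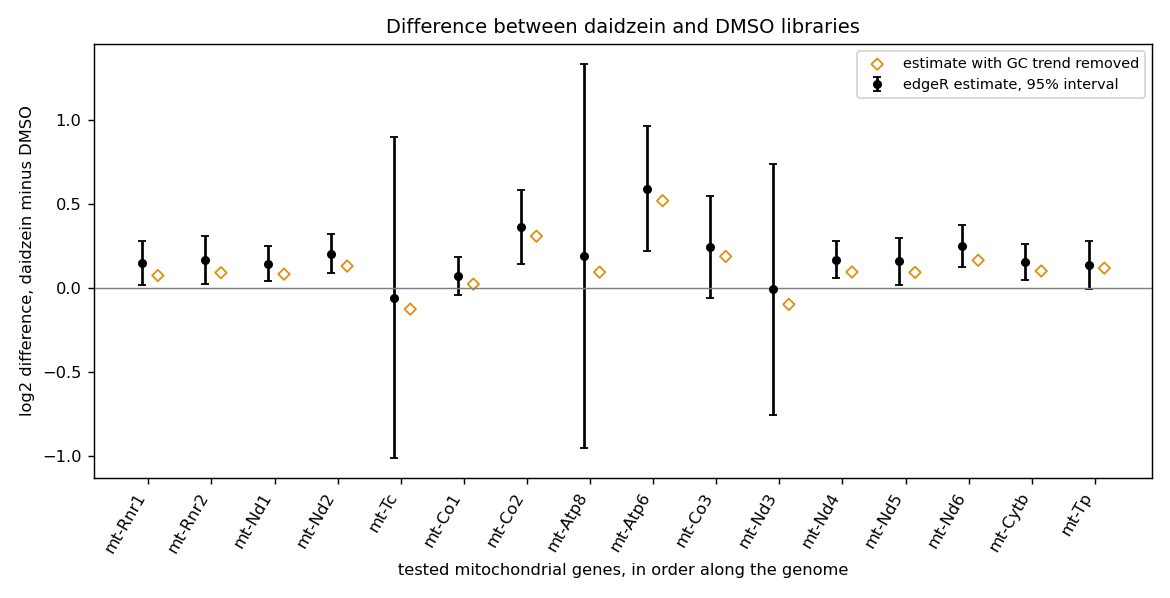
Log2 difference, daidzein minus DMSO, of the 16 tested mitochondrial genes in genome order, with the 95% interval of the edgeR fit (black) and the estimate after removal of a GC trend (open diamonds). Estimates run from -0.06 for mt-Tc to 0.59 for mt-Atp6, and the intervals are widest for mt-Tc, mt-Atp8 and mt-Nd3, which had the fewest reads.

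Ratios within a library do not depend on its depth. The strand setting of the counting is not known, so the strand ratio below compares genes by annotated strand, not RNA of each strand. Minus-strand genes, of which mt-Nd6 and mt-Tp held nearly all reads, had 2.10% and 2.10% of the count of plus-strand genes with daidzein, against 2.00% and 1.97% with DMSO. The groups did not overlap, and the log2 ratio differed by 0.08 with p = 0.333 in a two-sided exact permutation test, the smallest possible. With mt-Nd6 alone as the minus strand the log2 difference was 0.12, and without the genes that have a nuclear copy it was 0.05. With FPKM in place of counts, where the short mt-Tp weighs more, it was 0.02 and the groups overlapped. mt-Nd6 alone took 1.40% and 1.32% of mitochondrial counts with daidzein, against 1.26% and 1.25% with DMSO. mt-Co1 took 34.2% and 35.1% with daidzein, against 35.8% and 36.2% with DMSO.

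The rRNAs had 9.96% and 9.76% of the count of mRNAs with daidzein and 9.18% and 10.1% with DMSO. Both daidzein libraries lay between the DMSO libraries, and the direction turned when DMSO replicate 1 was left out. The tRNA count was 0.731% and 0.814% of the mRNA count with daidzein and 0.771% and 0.764% with DMSO. Here both DMSO libraries lay between the daidzein libraries. The two-sided exact permutation p was 1.00 for each of these ratios.

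**Figure D5:**
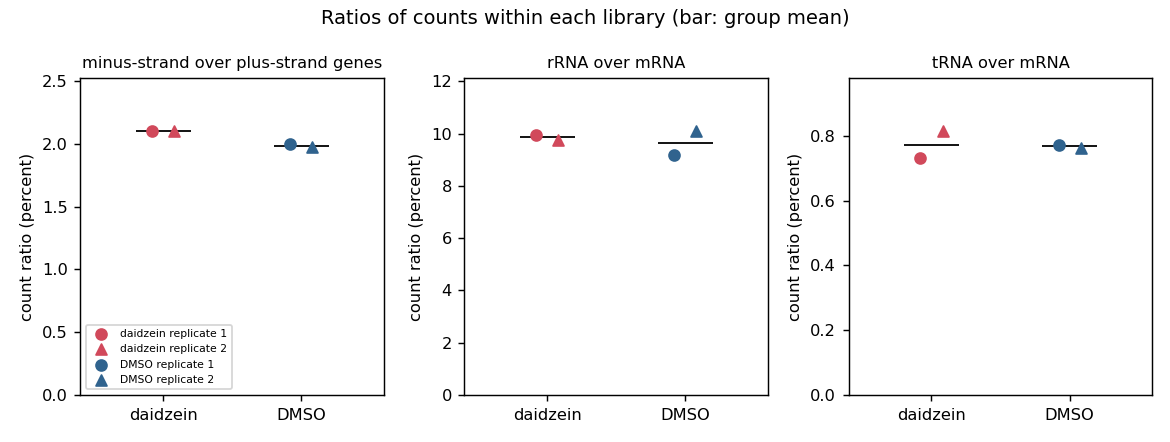
Ratios of counts within each library, in percent, with 1 point per library, the group mean as a bar and axes from 0. The ratio of minus-strand to plus-strand genes is 2.10% in both daidzein libraries, against 2.00% and 1.97% with DMSO, while for the other ratios the groups overlap.

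Nuclear genes that make and maintain mitochondrial RNA were set beside these values. Of 85 listed genes 83 could be tested. With daidzein 38 of them were higher and 45 lower, and 0 changed by edgeR, with 2 at an unadjusted p under 0.05, where 2.91% of all genes tested had such a p. DESeq2 called 0 of the nuclear genes named here. Their median log2 difference was -0.0093. The 12 genes of mitochondrial transcription had 8 higher and 4 lower, with a median of 0.05. Polrmt, the polymerase gene, stood at 72.3 and 68.4 CPM with daidzein and 71.1 and 62.6 CPM with DMSO, a fold of 1.05 (0.942 to 1.18), and its groups overlapped. Tfam, the gene of the factor that packs mitochondrial DNA and opens its promoters, had a fold of 1.04 (0.944 to 1.14). Tfb2m, the gene of the factor that helps the polymerase melt a promoter, stood at 17.6 and 15.7 CPM with daidzein and 14.2 and 13.9 CPM with DMSO. Its groups did not overlap, with a fold of 1.18 (0.988 to 1.41) and an edgeR adjusted p of 1.00.

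Of 21 tested genes of mitochondrial RNA processing and decay 12 were higher and 9 lower, with a median log2 difference of 0.0037. Mtpap, the mitochondrial poly(A) polymerase gene, had a fold of 1.07 (0.958 to 1.20), and Rexo2, the gene of an exonuclease for short RNA, of 1.06 (0.976 to 1.16). Of 27 genes that modify or charge mitochondrial tRNAs and rRNAs 10 were higher and 17 lower, with a median of -0.02. Tars2, the threonyl-tRNA synthetase gene, had a fold of 0.916 (0.828 to 1.01).

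Of 16 genes of mitochondrial DNA maintenance 5 were higher and 11 lower, with a median log2 difference of -0.03. The deoxynucleoside kinase genes Dguok and Tk2, whose enzymes supply nucleotides for mitochondrial DNA, had folds of 1.20 (1.01 to 1.42) and 1.23 (1.00 to 1.51). These are the 2 genes at an unadjusted p under 0.05, and the edgeR adjusted p of each was 1.00. Of 7 tested regulators of mitochondrial biogenesis 3 were higher and 4 lower, with a median of -0.02. Ppargc1b, a transcriptional coactivator gene, had a fold of 0.874 (0.738 to 1.04), Esrra, a nuclear receptor gene, of 0.913 (0.818 to 1.02), and Nrf1, a transcription factor gene, of 1.08 (0.973 to 1.21).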

How the data were processed

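The 4 libraries were grouped by the treatment label. Each library has a column of raw read counts in the table the authors deposited (whole numbers with unequal totals) and a column of FPKM, also deposited. FPKM recomputed from count, listed exonic length and library total differed by at most 0.01 in all 65326 values with a read. Per the submitters' processing notes, the tools were HISAT2 2.0.1, HTSeq 0.6.1 and DESeq2. These notes give mm9 as build and no roles. All 37 MT rows had the start, end and strand of GENCODE M21 on GRCm38, so GRCm38 coordinates are given. The main test was that of edgeR 4.0.16 under R 4.3.3 (TMM, default filterByExpr, quasi-likelihood F test, adjusted p of 0.05), and intervals are 95% intervals of that fit. DESeq2 1.42.0 and limma 3.58.1 on log2(FPKM + 1) were alternatives. The steps were tested on simulated data. Nuclear copies were searched with blastn 2.17.0 in GENCODE transcripts, at 95% identity over 50% of the gene, and up to 6 with most reads are described. Gm29216, which covers less of its gene than that, is described as well. All MT genes could be named. Nuclear genes named are the up to 4 of each list with the smallest p and at least 5 CPM, plus Polrmt and Tfam. Some of these are named only here. Mterf1a, Hsd17b10, Vars2, Fars2, Mrm3 and Gabpa were higher with daidzein, with folds of 1.05 to 1.12. Mterf3, Ptcd2, Slc25a33 and Endog were lower, with folds of 0.922 to 0.947. The members and lists were chosen with earlier results of these data known. Counting intervals and floors cover counting error only.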

Additional observations from a re-analysis of the deposited data

How the results depend on the processing

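Over all genes edgeR called 2. Without a low-count filter it called 11, and at a filter of 5 CPM 1, while limma on log2(FPKM + 1) or log2(FPKM + 0.1) called 0 (461 and 456 at an unadjusted p under 0.05). Leaving out each library gave 4 to 17 calls, in fits that give a single remaining library the spread of the other group. The count of changed mitochondrial genes, 0, was 2 without a filter (mt-Nd2 and mt-Nd6, of 17 with reads) and 0 to 3 with a library left out. The 3 were mt-Nd5, mt-Nd6 and mt-Rnr2, without DMSO replicate 2. With the replicate number as a block in edgeR, 27 genes changed, 6 of them higher. Those 6 were the mitochondrial genes mt-Nd1, mt-Nd2, mt-Nd4, mt-Nd5, mt-Nd6 and mt-Cytb, with edgeR adjusted p from 0.00420 to 0.0208. No label gives same-numbered libraries a shared origin, so they were not treated as pairs. Over all genes tested, the deviations of same-numbered libraries from their group means had a correlation of 0.09. With 2 libraries a group, that value cannot decide whether they share an origin. With a library left out, the log2 difference of the rRNA to mRNA ratio, 0.03, ran from -0.034 to 0.10, and that of the tRNA to mRNA ratio, 0.0075, from -0.070 to 0.085. The tRNA to mRNA value was -0.026 without genes that have a nuclear copy and -0.0011 with FPKM. Of 253 recomputed values of the 16 tested mitochondrial genes, 11 passed the threshold, 242 did not, and 8 values, of 3 genes, changed sign without passing. The cause was not tested.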
